A study of Mus musculus with 22 samples.

Results

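Collagen genes were taken as every gene whose mouse symbol reads Col, a number, a and a number, Col17a1 excepted, with at least 10 counts in at least 5 of the 22 libraries of the series. Of 56748 gene IDs, 44 had such a symbol and 41 were members; Col17a1 was left out by that rule, and Col9a1 and Col19a1, with 233 and 75 counts over all libraries, fell below the count minimum. All 41 also passed the filter on low counts of the test, so each had a fold change. The libraries are bulk RNA-seq of primary squamous carcinomas of mice that model head and neck cancer (HNSCC), in which the NRF2 pathway is hyperactive once Keap1, the repressor of the transcription factor NRF2, is lost. Mice of all 4 groups carried Krt5CreER-T2/+, floxed Trp53 (Trp53fl/fl) and a Cre-inducible PIK3CA(H1047R) transgene on both Rosa26 alleles. Keap1-deleted mice carried Keap1fl/fl as well, and Keap1-wildtype mice did not. The Keap1-deleted BAP group had 5 tumours, the Keap1-wildtype BAP group 6, the Keap1-deleted untreated group 5 and the Keap1-wildtype untreated group 6, where BAP stands for benzo[a]pyrene, a carcinogen of tobacco smoke, and untreated tumours have the treatment label None. Tumours were started in the buccal mucosa with 4-hydroxytamoxifen, which activates the Cre, with BAP given at that step in the BAP groups. The Krt5 promoter drives Cre in basal keratinocytes, so by design the alleles recombine in the epithelium and not in fibroblasts, vessels or muscle, while whole tumours were pulverised for RNA. The labels give no sex or age and do not say if any animal gave more than 1 tumour, so p-values measure the spread between these samples.

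Collagens are proteins of 3 chains wound into a triple helix. Fibrillar collagens form the rope-like fibrils of connective tissue and are made mainly by fibroblasts; network collagens build the basement membrane under epithelia and around vessels and muscle fibres. Other types form beaded filaments, sit on the surface of fibrils or span the cell membrane. In carcinomas the fibrils belong mostly to the stroma between the nests of tumour cells.

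Total counts were 29235010 to 39784402 per library in Keap1-deleted BAP tumours, 30579115 to 36087574 in Keap1-wildtype BAP tumours, 32000650 to 39862777 in Keap1-deleted untreated tumours and 29602879 to 38345425 in Keap1-wildtype untreated tumours. Keap1 itself, with the deletion a check of the labels, stood at 29.8, 65.6, 9.45, 32.2 and 14.97 CPM (counts scaled to library size by TMM, the unit of all levels here) in Keap1-deleted BAP tumours, against 52.3 to 64.6 CPM (median 57.5) in Keap1-wildtype BAP tumours. At 65.6 CPM, the library labelled Keap1-deleted BAP 2 was above the Keap1-wildtype BAP libraries, and it is named by its label throughout. In untreated tumours Keap1 was at 22.2 to 36.4 CPM in the deleted group and 45.8 to 78.9 CPM in the wildtype group, without overlap. The log2 fold change of Keap1 was -0.93 (SE 0.32, edgeR adjusted p = 0.0253) in BAP tumours and -0.98 (SE 0.32, edgeR adjusted p = 0.137) in untreated tumours. Replicate 4 of the Keap1-deleted BAP group held the lowest summed level of basal keratinocyte markers of all 22 libraries. The collagen genes took 1.96 to 5.51% of counts in Keap1-deleted BAP tumours, 0.183 to 0.415% in Keap1-wildtype BAP tumours, 0.525 to 8.86% in Keap1-deleted untreated tumours and 0.255 to 5.05% in Keap1-wildtype untreated tumours, where 4 libraries lay at 0.255 to 0.397% and replicates 5 and 6 at 3.67% and 5.05%.

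Promoter sequence from RefSeq (GRCm38.p6), the 250 bases before the annotated start, matched 32 of the 41 members in 34 windows. Windows of 4 genes are shown because their genes behave differently below: Col3a1, Col11a1 and Col27a1 were higher in Keap1-deleted than in wildtype BAP tumours, and Col7a1, the anchoring fibril collagen, did not pass that test. Each is written 5′ to 3′ on the strand of the gene, with capitals where the TATA box letters TATAAA, the letters of the CCAAT box or the GC box letters GGGCGG occur on either strand.
Col3a1, chr1:45311288-45311537, plus strand: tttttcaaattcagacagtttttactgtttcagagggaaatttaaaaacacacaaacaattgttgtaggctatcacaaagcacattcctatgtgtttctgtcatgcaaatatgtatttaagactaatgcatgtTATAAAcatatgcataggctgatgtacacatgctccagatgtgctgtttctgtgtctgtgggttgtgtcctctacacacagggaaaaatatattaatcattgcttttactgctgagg
Col11a1, chr3:114030290-114030539, plus strand: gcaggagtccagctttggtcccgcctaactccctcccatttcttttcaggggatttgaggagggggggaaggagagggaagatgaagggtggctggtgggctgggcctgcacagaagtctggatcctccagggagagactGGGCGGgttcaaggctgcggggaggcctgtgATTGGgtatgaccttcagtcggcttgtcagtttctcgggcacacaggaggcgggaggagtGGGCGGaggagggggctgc
Col27a1, chr4:63215162-63215411, plus strand: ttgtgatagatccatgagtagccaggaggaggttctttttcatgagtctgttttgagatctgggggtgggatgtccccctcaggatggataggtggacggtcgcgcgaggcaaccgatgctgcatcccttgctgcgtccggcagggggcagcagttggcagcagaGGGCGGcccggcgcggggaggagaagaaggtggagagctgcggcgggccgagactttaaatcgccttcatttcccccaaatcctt
Col7a1, chr9:108953336-108953585, plus strand: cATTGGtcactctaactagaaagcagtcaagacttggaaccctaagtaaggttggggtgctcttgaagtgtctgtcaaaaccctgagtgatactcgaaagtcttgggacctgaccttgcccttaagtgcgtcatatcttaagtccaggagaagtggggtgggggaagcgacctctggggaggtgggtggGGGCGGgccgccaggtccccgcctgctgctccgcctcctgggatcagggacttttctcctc
Col3a1 holds a TATAAA, Col27a1 a GGGCGG, and Col11a1 and Col7a1 each a CCAAT and a GGGCGG. The GGGCGG letters were in 64.7% of the member windows, against 32.7% of all 32851 promoter windows of the same length. CCAAT was in 32.4% of member windows and 33.8% of all windows, and TATAAA in 11.8% and 12.4%. The motifs were searched on both strands as spelled, and a match describes the letters only. The Col27a1 window lies inside the gene span given for Col27a1 below (chr4:63214004-63334991), so the RefSeq start and that span do not agree.

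Levels per kilobase divide CPM by the deposited gene length, which for 38 members equals the union of annotated exons. The length of the RNA present was not measured, so the order of different genes depends on that annotation. On this scale Col1a1 had the highest mean level of the collagens in every group. It averaged 1449 ± 876 CPM per kilobase in Keap1-deleted BAP tumours, 107.5 ± 46.4 in Keap1-wildtype BAP tumours, 1602 ± 1653 in Keap1-deleted untreated tumours and 785.5 ± 1064 in Keap1-wildtype untreated tumours (SD; n = 5, 6, 5 and 6). The next in Keap1-deleted BAP tumours were Col3a1 (692 ± 207 CPM per kilobase), Col1a2 (605 ± 319.9) and Col6a1 (382 ± 210.2), where each differed from the one before it in this order by less than the larger of their SDs. In Keap1-wildtype BAP tumours the next were Col18a1 (56.5 ± 22.6 CPM per kilobase), a basement membrane collagen, and Col7a1 (49.4 ± 14.8), ahead of Col1a2 (34.6 ± 12.7) and Col3a1 (33.9 ± 11). Among these 4, neighbours in order differed by less than the larger SD, while Col1a1 stood above Col18a1 by more than it.

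The make-up of the collagen level differed between the BAP groups. Fibrillar collagens made up 65.4 to 80.2% of the summed level per kilobase in the 5 Keap1-deleted BAP tumours, against 30.2 to 52.7% in the 6 Keap1-wildtype BAP tumours. Basement membrane collagens made up 5.11 to 14.97% in Keap1-deleted BAP tumours, against 29.6 to 48.6% in Keap1-wildtype BAP tumours. Neither pair of ranges overlapped. A lower share is not a lower level, since shares of 1 total depend on each other. The basement membrane genes summed to 1855 to 2875 CPM in Keap1-deleted and 888 to 1922 CPM in Keap1-wildtype BAP tumours, with overlap. The fibrillar genes summed to 12239 to 37969 CPM in Keap1-deleted and 581 to 2297 CPM in Keap1-wildtype BAP tumours. In untreated tumours the fibrillar share was 57.1 to 81.9% in the Keap1-deleted group and 19.2 to 81.8% in the Keap1-wildtype group, and the basement membrane share 4.02 to 22.7% in the Keap1-deleted group and 4.76 to 55.6% in the Keap1-wildtype group, both with overlap. These shares are descriptions that depend on the gene lengths used, and they carry no test.

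**Figure D1:**
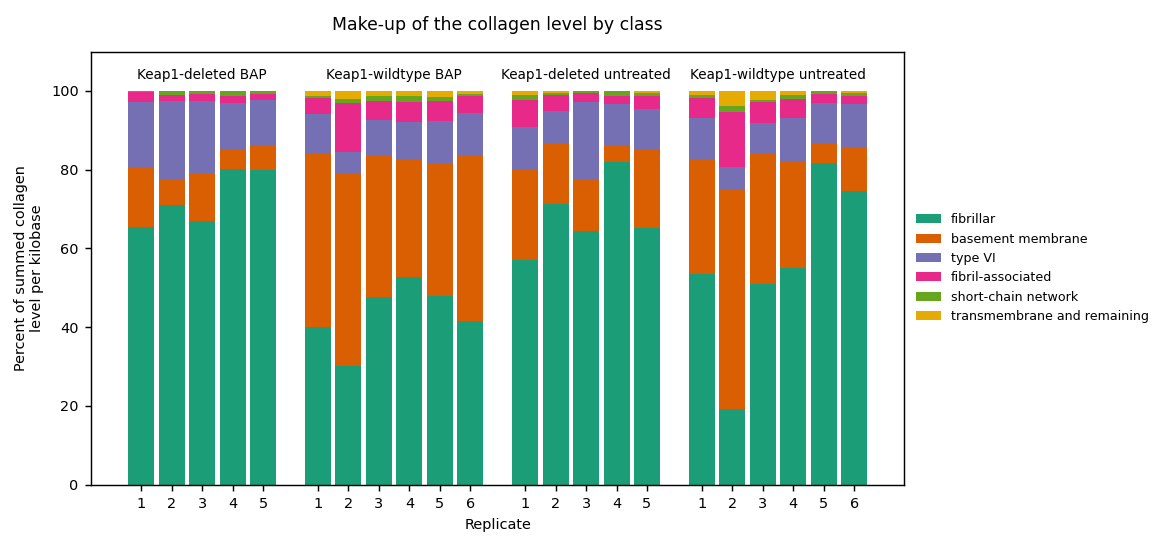
Share of the summed collagen level per kilobase (percent, vertical axis) taken by each class of collagen in each of the 22 libraries, grouped by genotype and treatment. The fibrillar share lies between 65.4 and 80.2% in the Keap1-deleted BAP libraries and between 30.2 and 52.7% in the Keap1-wildtype BAP libraries.

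Among BAP tumours, the Keap1-deleted ones had higher levels of most fibrillar, type VI and short-chain collagens, while the anchoring fibril gene and the multiplexins did not pass the test. Of 41 collagen genes, 19 rose and 1 fell in Keap1-deleted relative to Keap1-wildtype BAP tumours (edgeR quasi-likelihood test, adjusted p under 0.05 over 19202 genes), where 20.3% of all genes tested rose and 20.0% fell, 40.3% in all. A total of 25 members had an unadjusted p under 0.05, as did 9368 of all 19202 genes. The median log2 fold change over the members was 1.98, also with Col6a6 at its bound, against 0.00 over all genes, and 35 of 41 were positive. All 5 Keap1-deleted BAP libraries lay above all 6 wildtype ones for 15 members, against 13.8% of all genes, and for no member did all lie below, against 13.7%. Without the library labelled Keap1-deleted BAP 2 and replicate 4, 15 rose and 1 fell, which was Col7a1 and not Col23a1. In that fit 3132 of all 20406 genes rose and 2450 fell. Scaled by library totals only, 24 rose and 0 fell, where 6051 of all 19202 genes rose and 2193 fell. With that scaling 73.4% of all calls were higher, against 50.3% with TMM.

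**Figure D2:**
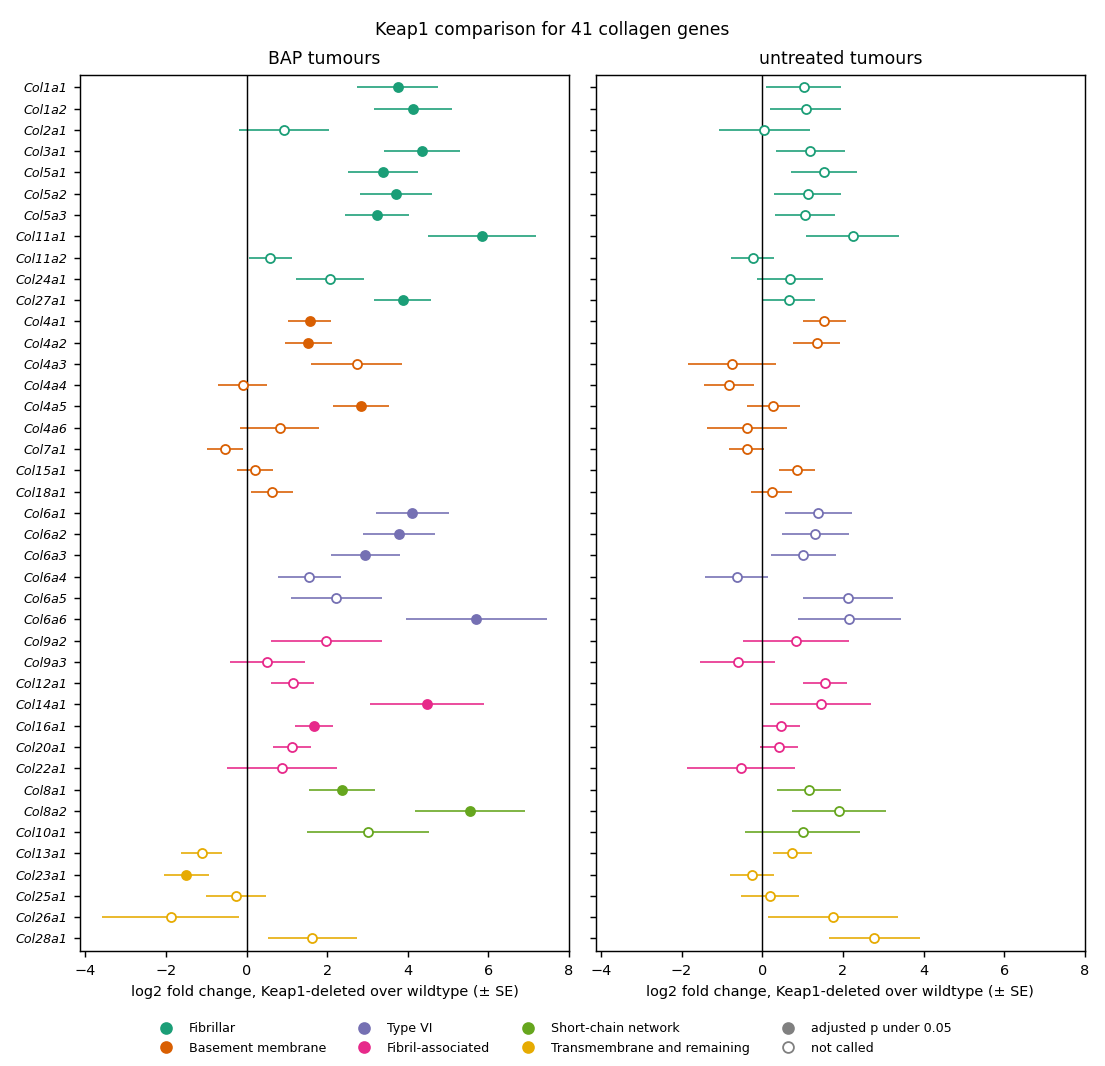
Log2 fold change (horizontal axis) of Keap1-deleted over Keap1-wildtype tumours for the 41 collagen genes by class, in BAP tumours and in untreated tumours. Points are edgeR estimates with bars of 1 SE, and filled points have an adjusted p under 0.05: 20 in BAP tumours and 0 in untreated tumours. The adjusted p depends on all genes tested, of which 40.3% were called in BAP tumours and 0.292% in untreated tumours. Col4a1 had almost the same fold change and SE in both and was called only in BAP tumours. The Col6a6 estimate rests on a group at 0 counts and is no bound.

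Among the 11 fibrillar collagens, 8 rose and none fell, where 20.3% of all genes rose and 20.0% fell. The median log2 fold change of the 11 was 3.70. Col1a1 (GRCm38 chr11:94936224-94953042, plus strand), one chain of type I collagen, the main fibril protein of skin, tendon and bone, had 3802, 13830.4, 2870.5, 12004 and 15049.9 CPM in the Keap1-deleted BAP tumours, against 203 to 1016 CPM (median 764.5) in the Keap1-wildtype BAP tumours. The groups did not overlap, and within each the lowest and highest libraries lay several-fold apart. Its log2 fold change was 3.75 (SE 1.005, edgeR adjusted p = 0.00613). Col1a2, the partner chain of type I, had 2782, 11245, 3869, 8697 and 11007 CPM in the Keap1-deleted BAP tumours, against 168 to 578 CPM (median 481) in the Keap1-wildtype BAP tumours, with a log2 fold change of 4.13 (SE 0.97, edgeR adjusted p = 0.00267). Col3a1 (chr1:45311538-45349706, plus strand), the chain of type III collagen of pliable tissues, whose promoter is shown above, had 3967, 8605, 5465, 7369.8 and 8551 CPM in the Keap1-deleted BAP tumours, against 135 to 438 CPM (median 352) in the Keap1-wildtype BAP tumours. Its 5 Keap1-deleted libraries all exceeded the 6 wildtype ones, by a log2 fold change of 4.35 (SE 0.95, edgeR adjusted p = 0.00162).

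Type V collagen, which starts fibrils and limits their width, rose in all of its 3 chains. Col5a1 had 335, 1019, 478, 1603 and 1123 CPM in the Keap1-deleted BAP tumours, against 24.7 to 135 CPM (median 89.9) in the Keap1-wildtype BAP tumours, a log2 fold change of 3.38 (SE 0.86, edgeR adjusted p = 0.00455). Col5a2 had 773, 1314, 854, 712 and 1465.5 CPM in the Keap1-deleted BAP tumours, against 21.03 to 126 CPM (median 74.7) in the Keap1-wildtype BAP tumours, a log2 fold change of 3.70 (SE 0.90, edgeR adjusted p = 0.00325). Col5a3 stood at 493, 547, 303, 205 and 443 CPM in the Keap1-deleted BAP tumours, against 18.4 to 71.7 CPM (median 42.4) in the Keap1-wildtype BAP tumours, a log2 fold change of 3.23 (SE 0.79, edgeR adjusted p = 0.00360). No Keap1-deleted library fell into the wildtype range for any of these 3 genes.

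Of the minor fibrillar types, Col11a1 and Col27a1 rose. Col11a1 (chr3:114030540-114220718, plus strand), a chain of type XI collagen, had 47.1, 211, 22.3, 342 and 163 CPM in the Keap1-deleted BAP tumours, against 0.510 to 4.82 CPM (median 2.96) in the Keap1-wildtype BAP tumours. All Keap1-deleted libraries lay above the wildtype ones, and the log2 fold change of 5.83 (SE 1.34, edgeR adjusted p = 0.00230) stands against 6 wildtype libraries that were all under 5 CPM. Col27a1 (chr4:63214004-63334991, plus strand), the chain of type XXVII collagen, had 38.2, 64.5, 24.8, 169 and 151 CPM in the Keap1-deleted BAP tumours, against 4.59 to 7.23 CPM (median 6.18) in the Keap1-wildtype BAP tumours. Its groups did not overlap, with a log2 fold change of 3.88 (SE 0.70, edgeR adjusted p = 0.000533). Col2a1, the chain of type II collagen and the main fibril protein of cartilage, was between 0 and 0.977 CPM in all 22 libraries. Its level was 0.634, 0.278, 0.681, 0.134 and 0.295 CPM in Keap1-deleted BAP tumours and 0 to 0.977 CPM (median 0.0485) in Keap1-wildtype BAP tumours, with a log2 fold change of 0.92 (SE 1.11, edgeR adjusted p = 0.535), which did not pass. The other fibrillar members that did not pass were Col11a2 and Col24a1, at medians of 2.27 and 4.11 CPM in Keap1-deleted BAP tumours and 1.38 and 1.35 CPM in Keap1-wildtype BAP tumours.

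**Figure D3:**
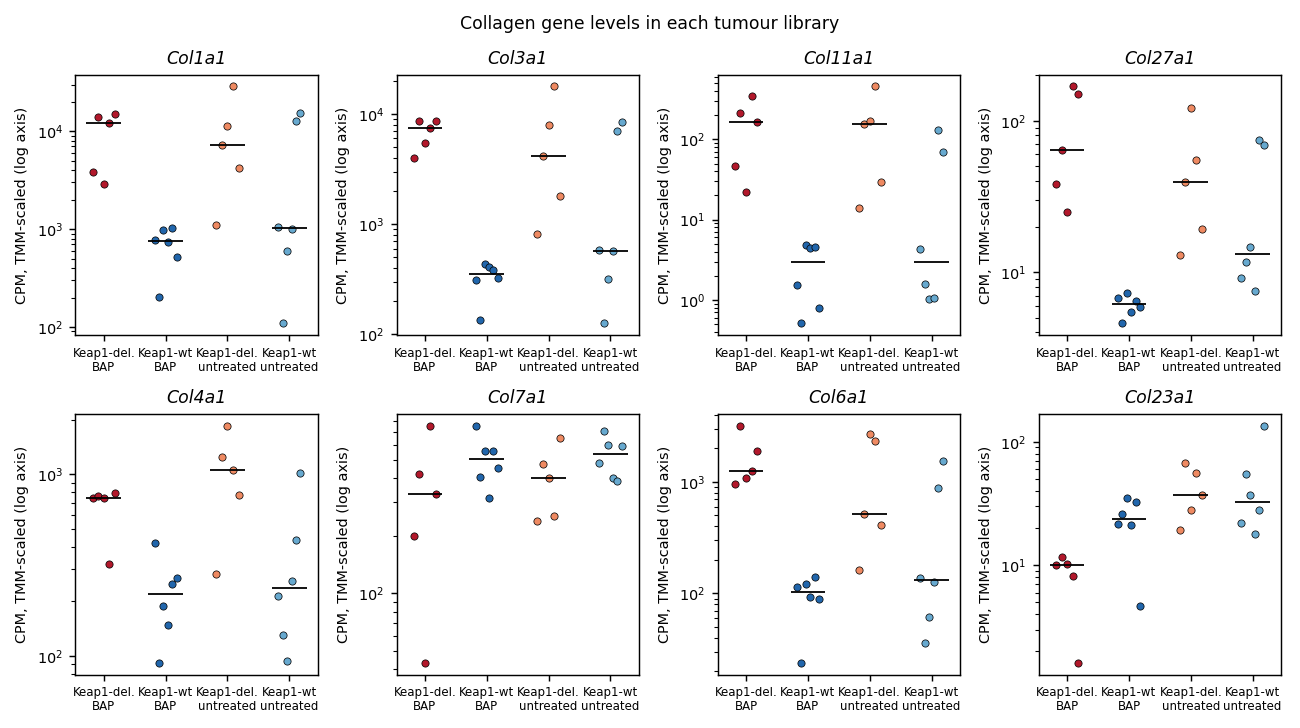
Level (CPM after TMM scaling, log axis) of 8 collagen genes in every library by group, with a line at each group's median. In BAP tumours the Keap1-deleted libraries lie above the wildtype ones for Col1a1, Col3a1, Col11a1, Col27a1 and Col6a1, and overlap them for Col4a1, Col7a1 and Col23a1.

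Markers of other cells moved with these genes. Beside the counts below, 20.3% of all genes rose and 20.0% fell between the BAP groups. The 11 fibroblast markers summed to 1783 to 3992.5 CPM in Keap1-deleted BAP tumours, against 113 to 197 CPM in Keap1-wildtype BAP tumours, and 10 of the 11 rose. The 10 basal keratinocyte markers summed to 179.5 to 1749 CPM in Keap1-deleted BAP tumours, against 26799 to 62895 CPM in Keap1-wildtype BAP tumours, and 9 of the 10 fell. Col17a1, a hemidesmosome collagen of basal keratinocytes that is left out of the members and is in that marker list, was among the 9, with a log2 fold change of -4.79 (SE 0.89, edgeR adjusted p = 0.000598). Skeletal muscle markers, 10 of 11 tested higher, summed to 21.8 to 1409.9 CPM in Keap1-deleted BAP tumours, against 6.93 to 86.9 CPM in Keap1-wildtype BAP tumours. The muscle ranges overlapped, and those of the other 2 lists did not. Of these 3 lists only Tnnc2, a muscle marker, was at 0 in all libraries of both BAP groups. In bulk RNA, more cells of a type and more RNA per cell cannot be told apart, and the part of these cells in the collagen levels was not tested. The labelled tissue, squamous carcinoma, had counts of basal keratinocyte markers in all 22 libraries, with the lowest sum in Keap1-deleted BAP replicate 4 at 179.5 CPM. There Dst and Itga6, which many cell types express, made up 149 CPM of it. The defining markers were low in that library, with Krt14 at 13.01, Trp63 at 3.86, Krt5 at 1.80, Col17a1 at 0.912, Lamb3 at 0.456 and Krt15 at 0.268 CPM.

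**Figure D4:**
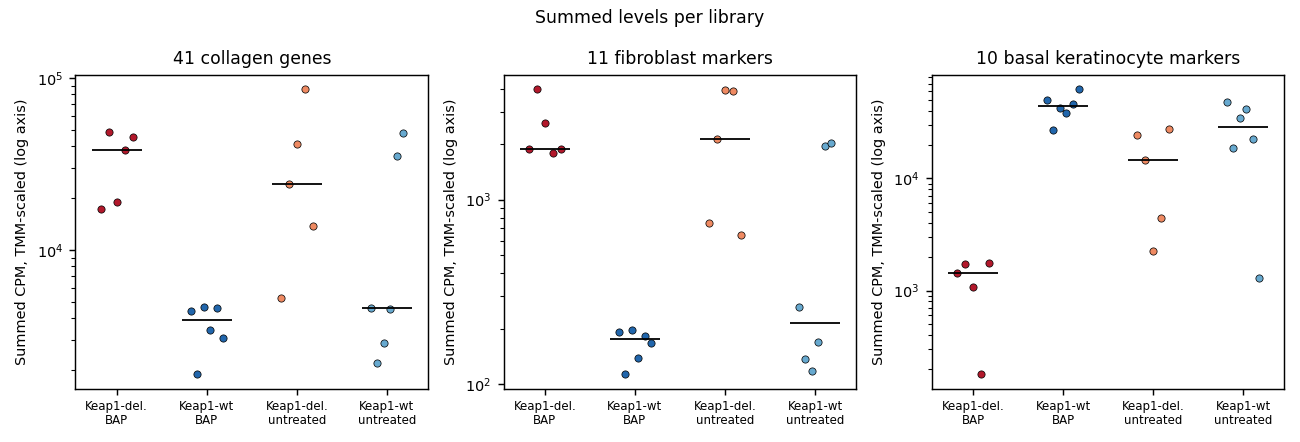
Summed CPM (log axis) of the 41 collagen genes, 11 fibroblast markers and 10 basal keratinocyte markers in every library by group. In the Keap1-deleted BAP group the fibroblast sum is 1783 to 3992.5 CPM and the keratinocyte sum 179.5 to 1749 CPM.

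The remaining marker lists are given for completeness, as sums of CPM in Keap1-deleted and then wildtype BAP tumours. Their counts called stand beside 20.3% of all genes higher and 20.0% lower. Endothelial markers, 4 of 11 higher, summed to 248 to 492 CPM in Keap1-deleted and 86.3 to 332 CPM in wildtype tumours. Pericyte and smooth muscle markers, 3 of 10 higher and 1 lower, summed to 440.3 to 1523 CPM in Keap1-deleted and 259 to 661.5 CPM in wildtype tumours. Bone markers, 3 of 6 tested higher, summed to 329.5 to 1785 CPM in Keap1-deleted and 22.6 to 139.5 CPM in wildtype tumours, without overlap. Spp1, which other cell types express as well, carried that sum, at a median of 1005 CPM in Keap1-deleted and 52.8 CPM in wildtype tumours. The bone-restricted markers Bglap, Bglap2, Sp7 and Ibsp did not exceed 1.48 CPM in either BAP group. Cartilage markers, 1 of 8 tested higher and 1 lower, summed to 42.7 to 101 CPM in Keap1-deleted and 29.1 to 119 CPM in wildtype tumours, with overlap. Nerve and Schwann cell markers, 2 of 10 higher and 2 lower, summed to 61.4 to 188 CPM in Keap1-deleted and 41.5 to 58.5 CPM in wildtype tumours. Adipocyte markers, 1 of 6 tested higher and 1 lower, summed to 18.3 to 145 CPM in Keap1-deleted and 326 to 5824 CPM in wildtype tumours. Fabp4, which is also known from vessels and leukocytes, carried the wildtype sum, at a median of 21.2 CPM in Keap1-deleted and 3375 CPM in wildtype tumours. Adipoq, Plin1, Lep and Cidec did not exceed 1.94 CPM in either BAP group. Lep (adipocyte) was at 0 in all Keap1-deleted BAP libraries, and Cnmd (cartilage), Phex (bone) and Plin1 (adipocyte) in all wildtype ones.

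Of 9 basement membrane collagens, 3 rose and none fell, where 20.3% of all genes rose and 20.0% fell. The median log2 fold change of the 9 was 0.82. Col4a1 (chr8:11198423-11312826, minus strand), a chain of the type IV network found in every basement membrane, had 740.2, 763.5, 746, 320.4 and 787 CPM in the Keap1-deleted BAP tumours, against 92.03 to 417 CPM (median 219.6) in the Keap1-wildtype BAP tumours. The groups overlapped, and the log2 fold change was 1.56 (SE 0.53, edgeR adjusted p = 0.0246). Its divergent neighbour and partner chain Col4a2 had 640.2, 629.9, 647, 228 and 507 CPM in the Keap1-deleted BAP tumours, against 67.8 to 340.2 CPM (median 173) in the Keap1-wildtype BAP tumours, with a log2 fold change of 1.54 (SE 0.58, edgeR adjusted p = 0.0399). The pair shares 22 exonic bases on opposite strands, and whether the authors' counting used strand is not given in the sources used here. Both calls are close to the threshold and were lost without single libraries, as given in the closing section.

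Of the X-linked type IV chains, Col4a5 passed the test and Col4a6 did not, and the difference between them was not tested. Col4a5, a chain of the networks of kidney, skin and smooth muscle basement membranes, had 46.6, 119.8, 18.9, 122.5 and 132 CPM in the Keap1-deleted BAP tumours, against 5.71 to 16.8 CPM (median 13.5) in the Keap1-wildtype BAP tumours. Its groups did not overlap, with a log2 fold change of 2.85 (SE 0.70, edgeR adjusted p = 0.00341). Col4a6, which pairs with Col4a5 in skin and smooth muscle, had 2.71, 23.1, 4.97, 10.1 and 2.95 CPM in the Keap1-deleted BAP tumours, against 0.336 to 10.5 CPM (median 5.55) in the Keap1-wildtype BAP tumours, with overlap and a log2 fold change of 0.82 (SE 0.99, edgeR adjusted p = 0.534), which did not pass. Col4a3 and Col4a4 stood at medians of 0.454 and 0.573 CPM in Keap1-deleted BAP tumours and 0.0674 and 0.558 CPM in Keap1-wildtype BAP tumours, and neither passed. Values of Col4a3 are uncertain, since it shares 563 exonic bases with C430014B12Rik, which held 208 counts against 243 for Col4a3.

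The anchoring fibril and the multiplexins overlapped between the groups. Col7a1 (chr9:108953586-108984875, plus strand), the chain of the fibrils that tie stratified epithelium to the stroma, had 201, 420, 43.3, 754 and 331 CPM in the Keap1-deleted BAP tumours, against 316 to 756 CPM (median 505) in the Keap1-wildtype BAP tumours. Its log2 fold change was -0.54 (SE 0.44, edgeR adjusted p = 0.344). Its highest Keap1-deleted BAP value, 754 CPM, was in replicate 4, the library with the lowest basal keratinocyte sum, 179.5 CPM. Which cells held the Col7a1 RNA was not tested. Col15a1, a proteoglycan-type collagen of basement membrane zones, had 17.7, 55.3, 35.03, 21.4 and 56.4 CPM in the Keap1-deleted BAP tumours, against 11.6 to 49.9 CPM (median 32.1) in the Keap1-wildtype BAP tumours, a log2 fold change of 0.20 (SE 0.45, edgeR adjusted p = 0.747). Col18a1, the precursor of endostatin, had 677, 863, 429, 396.5 and 710 CPM in the Keap1-deleted BAP tumours, against 281 to 693 CPM (median 334) in the Keap1-wildtype BAP tumours, a log2 fold change of 0.63 (SE 0.51, edgeR adjusted p = 0.341). None of these 3 passed the test. Col7a1 was called lower in 1 of the alternatives, without the library labelled Keap1-deleted BAP 2 and replicate 4.

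Type VI collagen, which forms beaded filaments around cells, rose in its 3 main chains. Col6a1 (chr10:76708792-76726168, minus strand) had 966, 3189, 1076, 1240.0 and 1893 CPM in the Keap1-deleted BAP tumours, against 23.96 to 139 CPM (median 103.5) in the Keap1-wildtype BAP tumours. All Keap1-deleted libraries exceeded the wildtype ones, with a log2 fold change of 4.11 (SE 0.90, edgeR adjusted p = 0.00166). Col6a2 had 898, 3049, 1040.0, 1037 and 1289 CPM in the Keap1-deleted BAP tumours, against 37.2 to 136 CPM (median 112) in the Keap1-wildtype BAP tumours, a log2 fold change of 3.78 (SE 0.90, edgeR adjusted p = 0.00295). Col6a3, the long chain, had 402, 1133, 455, 1381 and 621 CPM in the Keap1-deleted BAP tumours, against 29.1 to 159.7 CPM (median 104.5) in the Keap1-wildtype BAP tumours, a log2 fold change of 2.95 (SE 0.86, edgeR adjusted p = 0.00998). The groups did not overlap for any of these 3 genes. Col6a6, an alternative to Col6a3, also passed (edgeR adjusted p = 0.0166) at low level, with 0.302, 0.0253, 0.392, 0.215 and 0 CPM in Keap1-deleted BAP tumours against 0 counts in all 6 wildtype BAP libraries, so that its mean was at least 10.8-fold higher, taking a floor of 3 counts over the wildtype group. Col6a4 and Col6a5, at medians of 1.73 and 1.10 CPM in Keap1-deleted BAP tumours and 0.889 and 0.207 CPM in Keap1-wildtype BAP tumours, did not pass. The median log2 fold change of the 6 genes was 3.36, and 3.19 with Col6a6 at its bound.

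Of the 7 fibril-associated members, which sit on fibril surfaces, 2 rose and none fell, where 20.3% of all genes rose and 20.0% fell. Col14a1 had 43.02, 48.6, 52.8, 87.6 and 47.2 CPM in the Keap1-deleted BAP tumours, against 0.667 to 5.80 CPM (median 1.87) in the Keap1-wildtype BAP tumours, without overlap, and a log2 fold change of 4.48 (SE 1.41, edgeR adjusted p = 0.0156). Col16a1 had 221, 353, 163, 356 and 307 CPM in the Keap1-deleted BAP tumours, against 54.8 to 116.5 CPM (median 88.5) in the Keap1-wildtype BAP tumours, also without overlap, and a log2 fold change of 1.67 (SE 0.47, edgeR adjusted p = 0.00826). Col12a1, the chain of type XII collagen of dense connective tissue, had 185.5, 591, 82.2, 297 and 545 CPM in the Keap1-deleted BAP tumours, against 114 to 189 CPM (median 155) in the Keap1-wildtype BAP tumours. It overlapped between groups and did not pass, with a log2 fold change of 1.14 (SE 0.54, edgeR adjusted p = 0.0960), though 3 of 21 alternatives called it higher. Col22a1, a collagen of tissue junctions such as muscle and tendon, had 0.543, 0.0253, 0.537, 0.376 and 0 CPM in Keap1-deleted and 0 to 0.717 CPM (median 0.0370) in wildtype BAP tumours, a log2 fold change of 0.88 (SE 1.35, edgeR adjusted p = 0.634). Col9a2, Col9a3 and Col20a1 did not pass either, and their highest group median was 2.42 CPM. Values of Col9a3, Col10a1 and Col20a1 are uncertain, since their exons overlap those of Tcfl5, Nt5dc1 and BX649560.1, which hold more counts.

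Of the 3 short-chain network collagens, Col8a1 and Col8a2, the chains of type VIII collagen of vessel walls and the corneal membrane, rose. The share of all genes that rose was 20.3%. Col8a2 had 5.13, 90.8, 8.07, 58.8 and 46.8 CPM in the Keap1-deleted BAP tumours, against 0.287 to 1.95 CPM (median 0.725) in the Keap1-wildtype BAP tumours, without overlap, and a log2 fold change of 5.55 (SE 1.37, edgeR adjusted p = 0.00370). Col8a1 had 27.6, 271, 104, 303 and 134 CPM in the Keap1-deleted BAP tumours, against 13.5 to 51.9 CPM (median 32.3) in the Keap1-wildtype BAP tumours. The groups overlapped, and the log2 fold change was 2.37 (SE 0.82, edgeR adjusted p = 0.0260), a call lost under several alternatives. Col10a1, the collagen of hypertrophic cartilage, had 0, 4.40, 0, 0.805 and 24.7 CPM in Keap1-deleted and 0 to 2.96 CPM (median 0.465) in wildtype BAP tumours, a log2 fold change of 3.01 (SE 1.51, edgeR adjusted p = 0.117), which did not pass.

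Among the 5 transmembrane and remaining collagens none rose and 1 fell, where 20.3% of all genes rose and 20.0% fell. Col23a1 (chr11:51289920-51583918, plus strand), a transmembrane collagen known from epidermal keratinocytes, had 9.99, 11.6, 10.2, 8.21 and 1.62 CPM in the Keap1-deleted BAP tumours, against 4.70 to 35.2 CPM (median 23.8) in the Keap1-wildtype BAP tumours. The groups overlapped, and the log2 fold change of -1.50 (SE 0.56, edgeR adjusted p = 0.0392) passed narrowly. Col28a1, a secreted collagen known from peripheral nerve, had 0.845, 0.429, 3.41, 0.858 and 0.147 CPM in Keap1-deleted and 0 to 0.963 CPM (median 0.277) in wildtype BAP tumours, a log2 fold change of 1.63 (SE 1.11, edgeR adjusted p = 0.252). Col13a1, Col25a1 and Col26a1 did not pass, at medians of 3.86, 0.603 and 0 CPM in Keap1-deleted BAP tumours and 6.91, 0.661 and 0.733 CPM in Keap1-wildtype BAP tumours.

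Genes that make, export, cut and crosslink collagen were read from the same fit. There 20.3% of all genes rose and 20.0% fell in Keap1-deleted relative to wildtype BAP tumours. Lum and Dcn are both proteoglycans and fibroblast markers, and Lamb3 is both a basement membrane partner and a keratinocyte marker. Of 15 hydroxylases and glycosyltransferases, which modify the chains in the endoplasmic reticulum, 9 rose and 1 fell. P4ha3, a prolyl 4-hydroxylase subunit, had a median of 43.96 CPM in Keap1-deleted BAP tumours, against 4.32 CPM in Keap1-wildtype BAP tumours, a log2 fold change of 2.95 (SE 0.56, edgeR adjusted p = 0.000674). The prolyl 3-hydroxylases P3h1 and P3h3 rose, with log2 fold changes of 3.21 and 3.10, whereas P3h2 fell, with a log2 fold change of -4.04 (SE 0.68, edgeR adjusted p = 0.000380). P3h2 stood at 1.06 to 5.05 CPM in Keap1-deleted BAP tumours, against 15.1 to 139 CPM in Keap1-wildtype BAP tumours. Of 11 chaperone and secretion genes tested, 9 rose and 1, Mia2, fell. Serpinh1, the collagen chaperone HSP47, had a median of 1127 CPM in Keap1-deleted BAP tumours, against 187 CPM in Keap1-wildtype BAP tumours, a log2 fold change of 2.67 (SE 0.58, edgeR adjusted p = 0.00153). Fkbp7, Sec24d and Sec23a, a folding isomerase and coat proteins of export vesicles, rose, with log2 fold changes of 4.12, 1.93 and 1.68.

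Of 8 propeptide processing genes tested, 4 rose and 1, Mep1b, fell, where 20.3% of all genes rose and 20.0% fell. Pcolce, an enhancer of the C-propeptide protease, had a log2 fold change of 5.42 (SE 1.13, edgeR adjusted p = 0.00121), and Bmp1, that protease, 1.71. The N-propeptide proteases Adamts2 and Adamts14 had log2 fold changes of 3.05 and 4.92. All 6 crosslinking oxidases and transglutaminase genes rose. Lox, which oxidises lysines for crosslinks, had a median of 770.1 CPM in Keap1-deleted BAP tumours, against 11.1 CPM in Keap1-wildtype BAP tumours, a log2 fold change of 6.45 (SE 1.08, edgeR adjusted p = 0.000378). Its relatives Loxl1, Loxl2 and Loxl3 had log2 fold changes of 4.93, 3.72 and 6.45. Of 15 fibril-binding proteoglycans and glycoproteins, 11 rose and none fell. Dcn (decorin) was at a median of 894 CPM in Keap1-deleted BAP tumours, against 11.1 CPM in Keap1-wildtype BAP tumours, a log2 fold change of 6.21 (SE 1.09, edgeR adjusted p = 0.000454). Ogn, Aspn and Tnxb rose too, with log2 fold changes of 8.85, 4.62 and 4.42.

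Collagen receptors went both ways, with 5 of 9 tested higher and 2 lower, where 20.3% of all genes rose and 20.0% fell. The receptor kinase Ddr2 had a median of 142 CPM in Keap1-deleted BAP tumours, against 7.34 CPM in Keap1-wildtype BAP tumours, a log2 fold change of 4.17 (SE 0.82, edgeR adjusted p = 0.000822). Its relative Ddr1, known from epithelium, had a median of 42.2 CPM in Keap1-deleted BAP tumours, against 172 CPM in Keap1-wildtype BAP tumours, a log2 fold change of -2.21 (SE 0.37, edgeR adjusted p = 0.000362). Lair1, an inhibitory collagen receptor of leukocytes, rose, with a log2 fold change of 4.07, and Itga2, an integrin chain that binds collagen, fell, with one of -2.17. Of 15 basement membrane partners, 9 rose and 4 fell. The laminin-332 chains Lama3 and Lamb3 of epithelial basement membrane had log2 fold changes of -3.97 and -4.70 (edgeR adjusted p = 0.000593 and 0.000450), whereas Lama2, a laminin chain of muscle and nerve, and Nid1, a linker of laminin to type IV collagen, rose, with log2 fold changes of 3.64 and 4.41.

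In untreated tumours no collagen passed the test between Keap1-deleted and wildtype (edgeR), where 0.292% of all genes did, 0.214% higher and 0.0781% lower. Unadjusted p was under 0.05 for 4 members, Col4a1, Col4a2, Col12a1 and Col28a1, named after their values were seen. Over all 19202 genes, 3382 had such a p. DESeq2 called 0 members higher, with 402 of all 19202 genes higher and 519 lower. With limma-voom it was 8 members, with 2127 of all genes higher and 1268 lower. The median log2 fold change over the members was 1.01, against -0.05 over all genes, and 32 of 41 were positive. No member had groups without overlap, against 1.23% of all genes with the Keap1-deleted libraries all above and 0.708% with them all below. Col1a1 had 1101, 7279, 11232, 28729 and 4236 CPM in the Keap1-deleted untreated tumours, against 109 to 15491.5 CPM (median 1027) in the Keap1-wildtype untreated tumours. The wide wildtype range came from replicates 5 and 6, and the log2 fold change was 1.03 (SE 0.93, edgeR adjusted p = 0.570). Titles of these replicates begin with WT_, those of the other wildtype libraries with Wt_, a label difference of unstated meaning that was not tested. Without replicate 6 of the wildtype untreated group, 6 members rose: Col4a1, Col4a2, Col5a2, Col5a3, Col12a1 and Col18a1. In that fit 1641 of all 18984 genes rose and 1090 fell. Fibroblast markers, 0 of 11 called, summed to 647 to 3915 CPM in Keap1-deleted untreated tumours and 118 to 2027 CPM in Keap1-wildtype untreated tumours. Wildtype replicates 5 and 6 had sums of 1953 and 2027 CPM. Basal keratinocyte markers, 0 of 10 called, summed to 2272 to 27836 CPM in the deleted and 1299 to 47693.5 CPM in the wildtype group. Here wildtype replicates 5 and 6 had 22521 and 1299 CPM, and deleted replicates 3 and 4 had 2272 and 4426 CPM. The part of either list was not tested.

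Levels of the other fibrillar genes in untreated tumours also overlapped between the genotypes. Col1a2 had 805, 3623, 5866, 19445 and 2166.5 CPM in Keap1-deleted and 98.3 to 9015 CPM (median 665) in wildtype untreated tumours, a log2 fold change of 1.08 (SE 0.88, edgeR adjusted p = 0.529). Col3a1 had 807, 4108, 7846, 17759 and 1784 CPM in Keap1-deleted and 126 to 8459.7 CPM (median 572) in wildtype untreated tumours, a log2 fold change of 1.19 (SE 0.86, edgeR adjusted p = 0.470). Replicate 4 was the highest Keap1-deleted library for both genes, and for the wildtype group the lowest library lay below every deleted one. Col5a1 had 118, 642, 1019.7, 2996 and 361 CPM in Keap1-deleted and 29.8 to 996 CPM (median 111) in wildtype untreated tumours, a log2 fold change of 1.54 (SE 0.81, edgeR adjusted p = 0.326). Col5a2 had 175, 1066.5, 1206, 2730.2 and 418 CPM in Keap1-deleted and 42.1 to 1982 CPM (median 108) in wildtype untreated tumours, a log2 fold change of 1.12 (SE 0.83, edgeR adjusted p = 0.483). Col5a3 had 48.2, 379.8, 957.5, 327 and 162 CPM in Keap1-deleted and 21.97 to 647 CPM (median 53.2) in wildtype untreated tumours, a log2 fold change of 1.06 (SE 0.75, edgeR adjusted p = 0.460). All 3 type V chains overlapped between the genotypes. Col11a1 had 13.9, 156, 169, 457 and 29.4 CPM in Keap1-deleted and 1.02 to 130.3 CPM (median 2.94) in wildtype untreated tumours, a log2 fold change of 2.25 (SE 1.15, edgeR adjusted p = 0.314). Col27a1 had 13, 39.3, 121, 54.7 and 19.2 CPM in Keap1-deleted and 7.53 to 74.9 CPM (median 13.2) in wildtype untreated tumours, a log2 fold change of 0.67 (SE 0.64, edgeR adjusted p = 0.595). Col2a1 had 0.403, 0.0268, 0.465, 0.0899 and 0.103 CPM in Keap1-deleted and 0 to 0.361 CPM (median 0.264) in wildtype untreated tumours, a log2 fold change of 0.05 (SE 1.12, edgeR adjusted p = 0.986). Wildtype replicates 5 and 6 held the highest wildtype values of Col11a1 and Col27a1.

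Basement membrane genes in untreated tumours overlapped between the genotypes too. Col4a1 had 284, 1243, 1856, 1064 and 772 CPM in Keap1-deleted and 93.6 to 1019.8 CPM (median 237) in wildtype untreated tumours, a log2 fold change of 1.54 (SE 0.53, edgeR adjusted p = 0.157). Col4a2 had 233.5, 949.6, 1348, 910.4 and 619 CPM in Keap1-deleted and 72.2 to 1060.0 CPM (median 198) in wildtype untreated tumours, a log2 fold change of 1.35 (SE 0.58, edgeR adjusted p = 0.237). Both chains overlapped between genotypes. Col4a5 had 9.28, 12.4, 45.3, 66.1 and 7.74 CPM in Keap1-deleted and 4.90 to 53.8 CPM (median 13.04) in wildtype untreated tumours, a log2 fold change of 0.28 (SE 0.66, edgeR adjusted p = 0.8499). Col4a6 had 3.47, 0.751, 4.01, 13.04 and 2.98 CPM in Keap1-deleted and 0.309 to 25.1 CPM (median 1.79) in wildtype untreated tumours, a log2 fold change of -0.38 (SE 0.99, edgeR adjusted p = 0.862). Col7a1 had 238, 475, 403, 255 and 649 CPM in Keap1-deleted and 388 to 709 CPM (median 537) in wildtype untreated tumours, a log2 fold change of -0.39 (SE 0.44, edgeR adjusted p = 0.654). None of the 3 separated the genotypes. Col15a1 had 40.6, 91.04, 122, 114 and 69.6 CPM in Keap1-deleted and 14.8 to 83.3 CPM (median 44.2) in wildtype untreated tumours, a log2 fold change of 0.86 (SE 0.45, edgeR adjusted p = 0.322). Col18a1 had 261, 555, 1224, 572 and 464 CPM in Keap1-deleted and 188 to 1809 CPM (median 271) in wildtype untreated tumours, a log2 fold change of 0.23 (SE 0.51, edgeR adjusted p = 0.835).

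Type VI genes overlapped likewise. Col6a1 had 162, 515, 2666, 2311 and 411 CPM in Keap1-deleted and 35.8 to 1529.5 CPM (median 133) in wildtype untreated tumours, a log2 fold change of 1.39 (SE 0.82, edgeR adjusted p = 0.377). Col6a2 had 179, 589, 2728, 3078 and 463 CPM in Keap1-deleted and 32.6 to 1638 CPM (median 155) in wildtype untreated tumours, a log2 fold change of 1.31 (SE 0.83, edgeR adjusted p = 0.411). Col6a3 had 119, 589, 1072, 2464.5 and 370.5 CPM in Keap1-deleted and 40.05 to 1438 CPM (median 132) in wildtype untreated tumours, a log2 fold change of 1.02 (SE 0.82, edgeR adjusted p = 0.517). Wildtype replicates 5 and 6 held the highest wildtype values of Col6a2 and Col6a3. Col6a6 had 0.217, 1.45, 0.0258, 1.14 and 0.491 CPM in Keap1-deleted and 0 to 0.389 CPM (median 0.0839) in wildtype untreated tumours, a log2 fold change of 2.16 (SE 1.28, edgeR adjusted p = 0.383).

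The fibril-associated, short-chain and transmembrane genes overlapped between the genotypes as well. Col12a1 had 400, 1199, 965, 974 and 517 CPM in Keap1-deleted and 45.4 to 595 CPM (median 189) in wildtype untreated tumours, a log2 fold change of 1.55 (SE 0.54, edgeR adjusted p = 0.160). Col14a1 had 5.24, 12.4, 14.2, 355 and 5.28 CPM in Keap1-deleted and 0 to 120.5 CPM (median 3.13) in wildtype untreated tumours, a log2 fold change of 1.45 (SE 1.26, edgeR adjusted p = 0.553). Col16a1 had 101, 253, 350.1, 631 and 132 CPM in Keap1-deleted and 75.6 to 495.5 CPM (median 166) in wildtype untreated tumours, a log2 fold change of 0.47 (SE 0.46, edgeR adjusted p = 0.603). Col22a1 had 0.341, 0.268, 0.0775, 0.270 and 1.01 CPM in Keap1-deleted and 0 to 1.72 CPM (median 0.225) in wildtype untreated tumours, a log2 fold change of -0.54 (SE 1.34, edgeR adjusted p = 0.856). Its level did not exceed 2 CPM in any untreated library. Col8a1 had 37.7, 62.4, 132, 575 and 78.3 CPM in Keap1-deleted and 10.6 to 277.5 CPM (median 35.3) in wildtype untreated tumours, a log2 fold change of 1.16 (SE 0.80, edgeR adjusted p = 0.449). Col8a2 had 7.72, 21.5, 15.6, 218 and 12.2 CPM in Keap1-deleted and 0.232 to 49.3 CPM (median 1.37) in wildtype untreated tumours, a log2 fold change of 1.90 (SE 1.17, edgeR adjusted p = 0.396). Col10a1 had 4.19, 0.429, 0.491, 8.39 and 2.98 CPM in Keap1-deleted and 0.155 to 6.81 CPM (median 0.678) in wildtype untreated tumours, a log2 fold change of 1.01 (SE 1.43, edgeR adjusted p = 0.732). None of the 3 short-chain genes passed. Col23a1 had 19.4, 66.9, 28.1, 56.3 and 36.7 CPM in Keap1-deleted and 18.02 to 135 CPM (median 32.5) in wildtype untreated tumours, a log2 fold change of -0.25 (SE 0.54, edgeR adjusted p = 0.835). Col28a1 had 4.99, 6.11, 1.08, 7.22 and 1.22 CPM in Keap1-deleted and 0 to 1.17 CPM (median 0.597) in wildtype untreated tumours, a log2 fold change of 2.77 (SE 1.13, edgeR adjusted p = 0.214).

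BAP against no treatment was read within each genotype, from the same libraries as above. In Keap1-wildtype tumours no collagen passed (edgeR), as was the case for all genes (0.00% called). Unadjusted p was under 0.05 for 16 members and for 2622 of all 19202 genes. DESeq2 called 11 members lower, with 866 of all genes lower and 26 higher, and limma-voom called 0, as over all genes. The median log2 fold change was -1.26 over the members and -0.09 over all genes, and 3 of 41 were positive. Col27a1 alone had all BAP libraries below all untreated ones, against 0.203% of all genes, and no member had them all above, against 0.0833%. It had 4.59 to 7.23 CPM (median 6.18) in Keap1-wildtype BAP tumours and 7.53 to 74.9 CPM (median 13.2) in Keap1-wildtype untreated tumours. Col1a1, with 203 to 1016 CPM (median 764.5) in Keap1-wildtype BAP tumours and 109 to 15491.5 CPM (median 1027) in Keap1-wildtype untreated tumours, had a log2 fold change of -2.87 (SE 0.95, edgeR adjusted p = 0.176). Its highest untreated libraries were again replicates 5 and 6. Among the other named fibrillar genes the log2 fold changes were -2.82 (SE 0.90) for Col1a2, -3.09 (SE 0.88) for Col3a1, -2.02 (SE 0.80) for Col5a1, -2.71 (SE 0.84) for Col5a2, -2.08 (SE 0.74) for Col5a3, -3.65 (SE 1.2) for Col11a1, -2.36 (SE 0.65) for Col27a1 and 0.01 (SE 1.06) for Col2a1. Named basement membrane genes had -0.66 (SE 0.51) for Col4a1, -0.80 (SE 0.55) for Col4a2, -0.93 (SE 0.64) for Col4a5, -0.34 (SE 0.94) for Col4a6, -0.06 (SE 0.41) for Col7a1, -0.58 (SE 0.43) for Col15a1 and -0.40 (SE 0.49) for Col18a1. Type VI genes had -2.26 (SE 0.82) for Col6a1, -2.41 (SE 0.83) for Col6a2 and -2.14 (SE 0.81) for Col6a3. Fibril-associated genes had -0.85 (SE 0.52) for Col12a1, -3.52 (SE 1.33) for Col14a1, -1.26 (SE 0.45) for Col16a1 and -1.82 (SE 1.32) for Col22a1. Short-chain genes had -1.29 (SE 0.77) for Col8a1, -4.04 (SE 1.27) for Col8a2 and -1.15 (SE 1.40) for Col10a1, and the remaining ones -1.06 (SE 0.52) for Col23a1 and -0.71 (SE 1.07) for Col28a1. The edgeR adjusted p of these named genes lay between 0.145 and 0.998. Col6a6 was at 0 counts in every Keap1-wildtype BAP library, so no fold is given for it.

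In Keap1-deleted tumours BAP went with 1 lower collagen and none higher, where 5.16% of all genes fell and 0.943% rose, 6.10% in all. That gene was Col23a1, with 9.99, 11.6, 10.2, 8.21 and 1.62 CPM in Keap1-deleted BAP tumours and 19.4, 66.9, 28.1, 56.3 and 36.7 CPM in Keap1-deleted untreated tumours. Every BAP library lay below every untreated one, as for 3.54% of all genes (and every one above for 2.40% and for no member), and the log2 fold change was -2.32 (SE 0.59, edgeR adjusted p = 0.0281). Basal keratinocyte markers, 7 of 10 lower, summed to 179.5 to 1749 CPM in Keap1-deleted BAP tumours and 2272 to 27836 CPM in Keap1-deleted untreated tumours, and their part was not tested. A total of 6 members had an unadjusted p under 0.05, as did 3901 of all 19202 genes. The median log2 fold change over the members was -0.13, against -0.02 over all genes. Col1a1 had a log2 fold change of -0.14 (SE 0.97, edgeR adjusted p = 0.961), with 3802, 13830.4, 2870.5, 12004 and 15049.9 CPM in Keap1-deleted BAP tumours and 1101, 7279, 11232, 28729 and 4236 CPM in Keap1-deleted untreated tumours. The 2 ranges overlapped widely. The other named fibrillar genes had log2 fold changes of 0.24 (SE 0.92) for Col1a2, 0.07 (SE 0.89) for Col3a1, -0.17 (SE 0.85) for Col5a1, -0.13 (SE 0.87) for Col5a2, 0.09 (SE 0.78) for Col5a3, -0.07 (SE 1.17) for Col11a1, 0.85 (SE 0.68) for Col27a1 and 0.88 (SE 1.17) for Col2a1. Named basement membrane genes had -0.64 (SE 0.55) for Col4a1, -0.61 (SE 0.60) for Col4a2, 1.64 (SE 0.71) for Col4a5, 0.86 (SE 1.04) for Col4a6, -0.21 (SE 0.45) for Col7a1, -1.24 (SE 0.48) for Col15a1 and -0.00 (SE 0.54) for Col18a1. Type VI genes had 0.46 (SE 0.86) for Col6a1, 0.06 (SE 0.87) for Col6a2, -0.21 (SE 0.85) for Col6a3 and -1.80 (SE 1.34) for Col6a6. Fibril-associated genes had -1.25 (SE 0.57) for Col12a1, -0.49 (SE 1.31) for Col14a1, -0.07 (SE 0.49) for Col16a1 and -0.40 (SE 1.39) for Col22a1. Short-chain genes had -0.08 (SE 0.83) for Col8a1, -0.39 (SE 1.21) for Col8a2 and 0.86 (SE 1.499) for Col10a1, and Col28a1 had -1.85 (SE 1.16). None of these passed, with edgeR adjusted p of 0.137 to 0.9999. With limma-voom 2 members were higher and 5 lower, where 1615 of all genes were higher and 2149 lower. Among pathway genes, P3h2 (-2.58), the receptors Ddr1 (-1.59) and Itga1 (-1.15), and the laminin chains Lamb3 (-3.67) and Lama3 (-2.79) fell on the log2 scale, calls that were lost in 4 (Lamb3) to 13 (Itga1) of 20 alternatives.

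The Keap1 effect differed between BAP and untreated tumours for 1 collagen by the interaction test, where 2.47% of all genes had a higher and 4.47% a lower effect under BAP, 6.94% in all. Col27a1 had an interaction of 3.21 on the log2 scale (SE 0.94, edgeR adjusted p = 0.0451). It stood at 38.2, 64.5, 24.8, 169 and 151 CPM in Keap1-deleted BAP, 4.59 to 7.23 CPM (median 6.18) in Keap1-wildtype BAP, 13, 39.3, 121, 54.7 and 19.2 CPM in Keap1-deleted untreated and 7.53 to 74.9 CPM (median 13.2) in Keap1-wildtype untreated tumours. The call was lost under 19 of 31 alternatives and the direction held under all 31. A total of 10 members had an unadjusted p under 0.05, as did 5082 of all 19202 genes, and 33 of 41 interactions were positive. For Col1a1 the interaction was 2.73 (SE 1.34, edgeR adjusted p = 0.198), so the Keap1 effect on type I collagen is not shown to differ between the arms. The other named fibrillar genes had interactions of 3.05 (SE 1.28) for Col1a2, 3.16 (SE 1.24) for Col3a1, 1.85 (SE 1.15) for Col5a1, 2.58 (SE 1.19) for Col5a2, 2.17 (SE 1.07) for Col5a3, 3.58 (SE 1.65) for Col11a1 and 0.87 (SE 1.59) for Col2a1. Named basement membrane genes had 0.02 (SE 0.75) for Col4a1, 0.19 (SE 0.81) for Col4a2, 2.57 (SE 0.96) for Col4a5, 1.20 (SE 1.40) for Col4a6, -0.15 (SE 0.62) for Col7a1, -0.66 (SE 0.64) for Col15a1 and 0.40 (SE 0.73) for Col18a1. Type VI genes had 2.72 (SE 1.18) for Col6a1, 2.46 (SE 1.19) for Col6a2 and 1.93 (SE 1.17) for Col6a3. Fibril-associated genes had -0.41 (SE 0.76) for Col12a1, 3.03 (SE 1.82) for Col14a1, 1.20 (SE 0.66) for Col16a1 and 1.41 (SE 1.90) for Col22a1. Short-chain genes had 1.22 (SE 1.13) for Col8a1, 3.65 (SE 1.71) for Col8a2 and 2.01 (SE 2.05) for Col10a1, and the remaining ones -1.25 (SE 0.77) for Col23a1 and -1.14 (SE 1.56) for Col28a1. None of these passed, with edgeR adjusted p of 0.0927 to 0.989. Among pathway genes the interaction was lower for Lamb3 (-4.48), P3h2 (-4.02), Lama3 (-3.55), Ddr1 (-2.03) and Mia2 (-0.89), and higher for Ogn (8.64), Loxl3 (5.40) and Lair1 (3.89). These calls were lost in 5 (P3h2) to 21 (Mia2) of 31 alternatives.

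Ratios of partner chains, per kilobase, showed how tightly members moved together within a library, as a description. The values of these ratios depend on the gene lengths used, while their fold ranges do not. Col4a2 over Col4a1 stayed at 0.708 to 1.17 in all 22 libraries, a 1.66-fold range, although the level of Col4a1 itself varied 20.2-fold. Col1a2 over Col1a1 was 0.263 to 0.712, against a 264-fold range of Col1a1. Col6a2 over Col6a1 was 0.358 to 0.816, and Col5a1 over Col5a2 was 0.486 to 2.52, a 5.19-fold range. By contrast Col4a5 over Col4a1 ran from 0.0111 to 0.459, a 41.4-fold range, and Col4a6 over Col4a5, neighbours on the X chromosome, a 28.1-fold range. Col8a2 over Col8a1 was 0.135 to 0.611 in Keap1-deleted BAP tumours, against 0.0249 to 0.0918 in Keap1-wildtype BAP tumours, without overlap. In untreated tumours that ratio was 0.206 to 0.661 in the deleted group. It was 0.0117 to 0.918 in the wildtype untreated group, a 78.5-fold range that overlapped the deleted one. Col6a3 over Col6a1 was 0.120 to 0.408 in Keap1-deleted BAP tumours, against 0.303 to 0.467 in Keap1-wildtype BAP tumours, with overlap.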

How the data were processed

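RNA of 22 primary tumours was sequenced as paired-end reads, per the labels. The authors deposited an expected count (RSEM, per the file names) for each Ensembl gene; every value was whole (tolerance 1e-09). A gene's deposited effective length did not vary between files and was used for levels per kilobase; for 38 of the 41 members it equalled the union exon length in GENCODE M21. For aligner, build, annotation and strandedness: not given in the sources used here. Symbols and positions came from GENCODE M21 (GRCm38), matched for 52073 of 56748 IDs holding 99.39% of counts. Over 12352 genes the 231 library pairs had a chi-square per degree of freedom of at least 96.5, so no pair differed by as little as sampling noise.

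Counts were fitted with edgeR 4.0.16 in R 4.3.3: filterByExpr (minimum count 10, 19202 genes), TMM, robust quasi-likelihood, a term per group over all 22 libraries, Benjamini-Hochberg adjustment over all genes, calls at 0.05. SEs were derived from the edgeR statistics. Alternatives used DESeq2 1.42.0 and limma 3.58.1 (voom), other filters and scalings, subsets and leaving out each library. The fit was tested on simulated data. Replicates are numbered in accession order. The members, gene lists and tests were chosen with earlier results of these data known. Named were 22 collagens listed by symbol, members called in any contrast and up to 4 called genes per pathway list and contrast, by smallest p. Fold changes are printed for the 29 members this names in all 5 contrasts, except for Col6a6 in the 3 that include wildtype BAP tumours. Library totals limit precision, and counting error is not the only error.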

Additional observations from a re-analysis of the deposited data

Results flagged for a closer look

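Within groups of 5 or 6 libraries, the highest or lowest library stood apart from the others in 10 of 116 groups over 29 members, where chance flags about 1 in 20. Replicate 4 of the Keap1-deleted BAP group was low for Col4a1, at 320.4 CPM, and for Col4a2, at 228 CPM, and high for Col14a1, at 87.6 CPM. In Keap1-wildtype BAP tumours replicate 2 was low for Col3a1, at 135 CPM, for Col6a1, at 24.0 CPM, and for Col6a2, at 37.2 CPM. Replicate 4 of the Keap1-deleted untreated group was high for Col14a1, at 355 CPM, and replicate 6 of the Keap1-wildtype untreated group for Col18a1, at 1809 CPM. Col23a1 was low in Keap1-deleted BAP replicate 5, at 1.62 CPM, and low in Keap1-wildtype BAP replicate 6, at 4.70 CPM. The Keap1 effect on Col27a1 differed between BAP and untreated tumours, by 3.21 on the log2 scale (edgeR interaction test, adjusted p = 0.0451). That call was lost under 19 of the alternatives, and 2.47% of all genes had a higher effect under BAP.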

How the results depend on the processing

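No paired analysis was possible because the labels give no replicate numbers and the numbers used follow accession order. Over 29 named members, 5 contrasts and all alternatives, 150 of 3314 values changed sign, 0 of them in called genes, across 48 gene and contrast pairs; 69 calls were lost and 39 gained. By contrast the sign changes numbered 1 (Keap1 in BAP tumours), 21 (Keap1 in untreated), 22 (BAP in wildtype), 78 (BAP in deleted) and 28 (interaction). Leaving out wildtype untreated replicates 5 and 6 together was tried after the collagen levels were seen and is not reported, since replicate 5 was picked by the measured outcome.

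The 19 higher members in Keap1-deleted BAP tumours numbered 17 to 20 without single libraries, and 15 to 24 under the other settings: 15 without the library labelled Keap1-deleted BAP 2 and replicate 4, 22 with DESeq2, and 24 with library totals only. Over all genes, 3132 of 20406 genes were higher in the first, 4559 of 19202 with DESeq2 and 6051 with library totals, against 3900 in the fit reported. That last scaling moved the median of all genes from 0.00 to 0.44 and the share of higher among all calls from 50.3% to 73.4%. The count of 1 lower member became 0 with no low-count filter, library totals only, limma-voom, and titles ending in R as a covariate or left out (R is a label suffix of unstated meaning), and 0 to 2 without single libraries. It was 0 without wildtype replicate 1, 3, 4 or 5 or deleted replicate 1, 3 or 5, and 2, Col23a1 and Col13a1, without the library labelled Keap1-deleted BAP 2. The 1 lower member was Col13a1 and not Col23a1 without wildtype replicate 2, Col26a1 without deleted replicate 4, and Col7a1 without deleted replicates 2 and 4 (Col13a1 and Col26a1 are named after their values were seen). Of the named calls there, Col23a1 was lost in 15 of 21 alternatives, Col4a2 in 12, Col8a1 in 8, Col4a1 in 2 (no low-count filter, and without wildtype replicate 4), Col6a6 in 2 of 19, and Col6a3 and Col16a1 in 1 each (without deleted replicates 2 and 4); the other 13 kept their call. Calls gained by named members there were 5: Col7a1, lower without deleted replicates 2 and 4, Col10a1, higher without wildtype replicate 3, and Col12a1, higher with library totals only, with only the groups compared and without deleted replicate 3. Col4a6 reversed to -0.41 without deleted replicates 2 and 4.

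In untreated tumours the Keap1 count of 0 higher became 8 with limma-voom and 0 to 6 without single libraries, 6 being without wildtype replicate 6. BAP in wildtype tumours became 11 lower with DESeq2. BAP in deleted tumours became 2 higher and 5 lower with limma-voom. The report gives the counts over all genes beside these. The 1 lower call for BAP in deleted tumours became 0 with no low-count filter, only titles not ending in R, or without deleted BAP replicates 2 and 4, and 0 to 1 without single libraries, being lost without deleted untreated replicate 1, 2 or 5 or deleted BAP replicate 1, 4 or 5. The interaction count of 1 became 0 with no low-count filter, only titles not ending in R or without deleted BAP replicates 2 and 4, 3 with DESeq2, and 0 to 5 without single libraries, 5 being without deleted untreated replicate 4. Over all genes 475 interactions were higher in the fit reported, 1407 with DESeq2 and 704 of 19835 without that replicate. The cause of these changes was not tested.

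Log2 fold changes that reversed in sign, all in genes not called, were as follows. For Keap1 in untreated tumours, with limma-voom they were -0.85 for Col2a1, 0.42 for Col4a6, -0.20 for Col10a1, 0.43 for Col22a1 and 0.74 for Col23a1. With titles ending in R as a covariate it was -0.06 for Col2a1. With only titles not ending in R they were 0.27 for Col4a6 and -0.62 for Col18a1. The ranges without single libraries were -0.42 to 0.34 for Col2a1, -0.31 to 0.72 for Col4a5, -1.16 to 0.92 for Col4a6, -0.03 to 2.15 for Col8a1, -0.05 to 2.81 for Col8a2, -1.62 to 2.92 for Col14a1, -0.01 to 0.93 for Col16a1, -0.17 to 1.20 for Col18a1, -1.21 to 0.20 for Col22a1 and -0.48 to 0.37 for Col23a1. For BAP in wildtype tumours, with library totals only it was -0.16 for Col2a1. With limma-voom they were -0.57 for Col2a1, 0.07 for Col4a5, 1.43 for Col4a6, 0.01 for Col7a1 and 0.49 for Col18a1. With titles ending in R as a covariate they were -0.10 for Col2a1, 0.00 for Col4a6 and 0.02 for Col7a1. With only titles not ending in R they were 0.06 for Col4a6, 1.21 for Col10a1 and 0.04 for Col28a1. The ranges without single libraries were -1.81 to 0.28 for Col2a1, -0.92 to 0.00 for Col4a1, -1.07 to 0.10 for Col4a2, -0.71 to 0.96 for Col4a6, -0.21 to 0.04 for Col7a1, -2.48 to 0.30 for Col10a1 and -0.63 to 0.57 for Col18a1. For BAP in deleted tumours, with limma-voom they were 0.38 for Col1a1, 0.49 for Col5a1, 0.30 for Col5a2, 0.45 for Col6a3, 0.76 for Col8a1, 0.36 for Col8a2, -1.10 for Col10a1, 0.07 for Col11a1, 2.00 for Col14a1, 0.25 for Col16a1 and 0.23 for Col18a1. With titles ending in R as a covariate they were 0.06 for Col1a1, 0.03 for Col5a1, 0.25 for Col5a2, 0.36 for Col8a1, 0.19 for Col11a1, 0.10 for Col16a1 and 0.21 for Col18a1. With only titles not ending in R they were -0.00 for Col1a2, -0.22 for Col3a1, -0.03 for Col4a6, -0.18 for Col5a3, -0.06 for Col6a1, -0.63 for Col6a2, 0.32 for Col7a1 and 0.37 for Col22a1. Without deleted BAP replicates 2 and 4 they were -0.12 for Col1a2, -0.11 for Col3a1, -0.44 for Col4a6 and -0.39 for Col6a2. With library totals only they were 0.11 for Col8a1, 0.09 for Col11a1, 0.07 for Col16a1 and 0.08 for Col18a1. With at least 1 CPM in 5 libraries it was 0.02 for Col18a1. With DESeq2 size factors it was 0.01 for Col18a1. With DESeq2 it was 0.01 for Col18a1. With only the groups compared it was 0.03 for Col18a1. The ranges without single libraries were -0.44 to 0.67 for Col1a1, -0.05 to 1.27 for Col1a2, -0.22 to 0.90 for Col3a1, -0.48 to 0.76 for Col5a1, -0.41 to 0.51 for Col5a2, -0.20 to 0.79 for Col5a3, -0.40 to 0.56 for Col6a2, -0.50 to 0.57 for Col6a3, -0.70 to 0.07 for Col7a1, -0.40 to 1.11 for Col8a1, -0.89 to 1.56 for Col8a2, -1.34 to 1.56 for Col10a1, -0.57 to 0.77 for Col11a1, -0.80 to 2.58 for Col14a1, -0.29 to 0.42 for Col16a1, -0.20 to 0.41 for Col18a1 and -0.74 to 0.33 for Col22a1. For the interaction, with limma-voom they were -0.46 for Col4a1, -0.52 for Col4a2 and -0.26 for Col18a1. With only titles not ending in R they were -0.09 for Col4a6, 0.47 for Col7a1 and 0.05 for Col12a1. Without deleted BAP replicates 2 and 4 it was -0.08 for Col4a6. With library totals only it was 0.23 for Col7a1. The ranges without single libraries were -0.64 to 0.33 for Col4a1, -0.71 to 0.46 for Col4a2, -0.10 to 1.98 for Col4a6, -0.64 to 0.13 for Col7a1, -0.19 to 3.34 for Col10a1 and -0.57 to 0.81 for Col18a1.

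Depth limits the members at few counts: Col2a1, Col4a3, Col6a6, Col9a2 and Col22a1 stayed under 2 CPM. Groups of 5 and 6 tumours, with up to 263.7-fold ranges of Col1a1 over the libraries, limit the precision, and tissue make-up cannot be told apart from levels per cell.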
